A study of Mus musculus with 5 samples.

Results

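The WNT pathway genes examined here are 46 genes chosen by symbol: 19 WNT ligands, 12 receptors (10 Frizzled genes and the co-receptors Lrp5 and Lrp6), 12 intracellular effectors and 3 inhibitors, out of 21887 protein-coding genes on the assembled mouse chromosomes. A peak was counted for a gene where any base of it lay inside the gene or within 10 kb of either end in mm10. The data came from chromatin immunoprecipitation followed by sequencing (ChIP-seq) of KLF5, a zinc-finger transcription factor. The anti-V5 immunoprecipitate came from wild-type mouse embryonic stem (ES) cells, derived from C57B6/J mice, that overexpressed KLF5 carrying the V5 epitope tag. An immunoprecipitate of the same cells with normal mouse IgG, an anti-V5 immunoprecipitate of untagged wild-type ES-D3 cells (an established mouse ES line) and an input DNA library of each kind of cell served as controls. Neither the construct that drove the tagged protein nor whether the cells were a single clone is stated in the labels. The peak lists hold no expression values, so the labelled cell type could not be checked against marker genes.

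WNT ligands are secreted lipid-modified proteins that bind Frizzled receptors together with LRP5 or LRP6. In the canonical branch, receptor engagement acts through Dishevelled to restrain a destruction complex of Axin, APC and GSK3, so that beta-catenin accumulates and works with TCF and LEF factors at target genes. In mouse ES cells this pathway is known for supporting self-renewal, and inhibition of GSK3 is part of a common culture condition for naive ES cells.

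Each group was 1 library, so no comparison between groups has a replicate check and none of the values below carries a p-value. The anti-V5 library of V5-KLF5 cells kept 23.2 M (mega) tags and gave 45378 peaks, the IgG library kept 24.5 M tags and gave 3 peaks, and the anti-V5 library of ES-D3 cells kept 21.8 M tags and gave 0. The run name in the ES-D3 list names another mouse ES line, so the identity of that control is uncertain. None of the control peaks lay in or within 10 kb of a WNT gene. The 182 peaks described here were taken from the list of the anti-V5 library of V5-KLF5 cells.

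V5-KLF5 peaks lay at 45 of the 46 WNT genes, 97.8%, against 70.6% of all protein-coding genes. The share on autosomes, where all 46 genes lie, was 73.2%. By role, 18 of 19 ligands, 12 of 12 receptors, 12 of 12 effectors and 3 of 3 inhibitors had a peak. The gene without a peak was Wnt2, a ligand gene on chromosome 6 (17985474 to 18032772), whose nearest peak lay 144555 bp away with a fold enrichment of 4.34. Fold enrichment is the authors' ratio of the tag height at the summit to the background set for it, with 1 added to both. That background sat at a shared lowest value of 3.10 tags for the strongest peaks of 16 of the 45 genes. The same value held for 16877 of the 45366 peaks on assembled chromosomes, so at these peaks it did not vary with the local input.

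The strength of these peaks was close to that at other genes. The median strongest peak of the 45 genes had a fold enrichment of 7.86, against 7.76 for all protein-coding genes with a peak. Over all genes, with or without a peak, a strongest peak of at least 10 was found at 14 of 46 WNT genes, 30.4%, against 22.5% of protein-coding genes. Counted only over genes with a peak, as for the medians, this was 14 of 45 against 4914 of 15459, so no excess of strong peaks remained. By role the 14 genes were 5 of 19 ligands, 4 of 12 receptors and 5 of 12 effectors, with 0 of 3 inhibitors. The median strongest peak was 6.77 for the ligands, 8.22 for the receptors, 8.90 for the effectors and 6.35 for the inhibitors. The order of ligands, receptors and effectors changed with the window and the peak threshold: within 50 kb the medians were 9.74, 8.22 and 12.05, and within 1 kb 6.34, 8.54 and 8.42. At the threshold of 10, Fzd7 stood just above with 10.1, and Fzd4 and Axin1 just below with 9.05 and 9.03. The 182 distinct peaks had a median fold enrichment of 4.83 and a median length of 429 bp, against 5.18 and 427 bp for all peaks on assembled chromosomes.

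**Figure D1:**
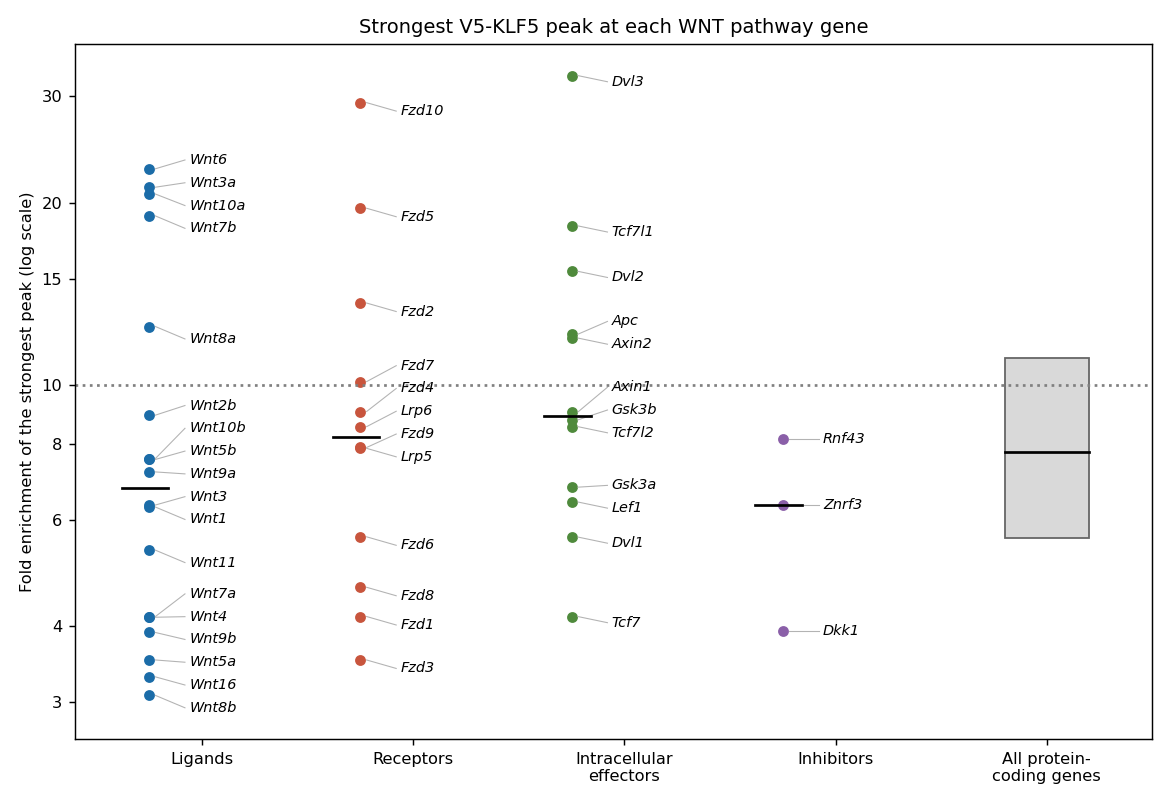
The vertical axis gives the fold enrichment of the strongest V5-KLF5 peak (log scale), with 1 point for each WNT gene with a peak, by role. Black bars are medians, the grey box spans the quartiles of all protein-coding genes with a peak (5.59 to 11.1), and the dotted line marks a fold enrichment of 10. Every role except the inhibitors has genes above 10 and genes below 6, and Dvl3 and Fzd10 stand highest.

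The 250 bases before a start site were available from RefSeq (GRCm38.p6) for 33 of the 46 genes. The promoters below are shown because a V5-KLF5 peak overlaps them: they are the 5 WNT promoters under the strongest peaks and, last, the ligand promoter under the strongest peak. Each is printed from 5′ to 3′ on the gene's own strand and ends at the base before the start site. Capitals mark matches to a KLF-type GC-box motif, GGGNGNGG on either strand, and overlapping matches run together.
Fzd10 (chr5:128600856-128601105, plus strand): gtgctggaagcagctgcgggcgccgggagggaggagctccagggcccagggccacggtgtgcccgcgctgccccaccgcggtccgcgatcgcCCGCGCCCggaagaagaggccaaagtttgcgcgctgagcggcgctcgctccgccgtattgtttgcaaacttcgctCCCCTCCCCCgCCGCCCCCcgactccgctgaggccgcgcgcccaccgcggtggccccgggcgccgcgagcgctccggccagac
Dvl2 (chr11:70000342-70000591, plus strand): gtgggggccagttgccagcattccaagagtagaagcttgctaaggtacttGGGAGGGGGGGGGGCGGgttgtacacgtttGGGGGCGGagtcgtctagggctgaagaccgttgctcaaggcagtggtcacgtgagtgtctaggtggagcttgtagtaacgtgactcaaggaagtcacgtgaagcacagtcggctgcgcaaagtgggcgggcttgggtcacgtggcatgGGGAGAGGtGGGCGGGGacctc
Fzd7 (chr1:59481897-59482146, plus strand): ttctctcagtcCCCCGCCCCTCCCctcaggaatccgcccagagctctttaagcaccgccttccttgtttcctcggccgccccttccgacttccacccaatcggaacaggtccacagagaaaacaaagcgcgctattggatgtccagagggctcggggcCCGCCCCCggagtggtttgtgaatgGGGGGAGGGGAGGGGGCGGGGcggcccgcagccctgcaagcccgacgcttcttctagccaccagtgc
Fzd5 (chr1:64737751-64738000, minus strand): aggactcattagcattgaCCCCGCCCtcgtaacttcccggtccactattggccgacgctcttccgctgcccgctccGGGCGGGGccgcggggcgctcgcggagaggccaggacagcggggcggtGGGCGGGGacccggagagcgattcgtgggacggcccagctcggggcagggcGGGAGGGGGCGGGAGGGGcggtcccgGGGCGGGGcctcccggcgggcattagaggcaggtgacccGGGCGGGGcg
Fzd4 (chr7:89404116-89404365, plus strand): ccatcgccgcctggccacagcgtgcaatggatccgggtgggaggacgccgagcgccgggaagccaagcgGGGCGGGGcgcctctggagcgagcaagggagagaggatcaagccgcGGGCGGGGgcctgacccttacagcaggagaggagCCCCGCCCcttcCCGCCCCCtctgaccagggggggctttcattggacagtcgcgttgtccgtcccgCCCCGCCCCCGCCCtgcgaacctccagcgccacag
Wnt2b (chr3:104961710-104961959, minus strand): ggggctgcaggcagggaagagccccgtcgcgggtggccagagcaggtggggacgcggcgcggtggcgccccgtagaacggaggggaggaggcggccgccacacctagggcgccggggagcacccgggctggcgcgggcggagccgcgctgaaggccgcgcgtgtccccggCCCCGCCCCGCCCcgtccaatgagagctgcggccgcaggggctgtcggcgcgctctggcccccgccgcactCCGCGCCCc

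The promoters of the Frizzled genes Fzd7, Fzd5 and Fzd4 held 8, 8 and 7 motif matches, counted by their first base. Dvl2 also held 8, most of them in a run of overlapping matches, whereas Fzd10, under the strongest of these peaks, held 4. The Wnt2b promoter held 3. Of the 42 promoter windows of the 33 genes, 38 (90.5%) held at least 1 match, against 52.9% of all 21263 windows of protein-coding genes. The windows of the WNT genes were also richer in G and C, with a median of 67.4% against 55.6%. Among windows with at least 60% G and C, 30 of 30 held a match, against 81.8% of all such windows, and among windows under a peak 96.2% did, against 73.4%. Within both sets the WNT windows were still richer in G and C, with medians of 72.4% against 66.8% and of 66.6% against 62.4%. The part of G and C content in these differences was not tested. A match describes the letters only. A TCF and LEF motif, CTTTGAT on either strand, occurred in 2 of the 42 windows, at Wnt5b and Wnt11, and in 2.82% of all windows. It overlapped no GC-box match in any of the 42.

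Peaks over promoters differed in frequency between the roles. A V5-KLF5 peak covered at least 1 base of the 250 bases before a start site at 22 of the 33 genes, 66.7%, against 46.1% of the 17492 protein-coding genes with a window. Among windows with at least 60% G and C the order turned, with a peak at 18 of 28 WNT genes, 64.3%, against 74.6% of all protein-coding genes. Over all windows, a peak overlapped the promoter at 6 of 6 Frizzled genes and 9 of 10 effectors with a window, but at 6 of 15 ligands. Some of these overlaps were small: at Fzd1, Wnt3a and Wnt10b the peak reached only an edge of the window. The effector without such a peak was Tcf7. These counts leave out the ligands Wnt5a, Wnt7b, Wnt8a and Wnt10a and the effectors Axin1 and Apc, which had no window. The receptors Fzd2, Fzd3, Fzd6, Fzd8, Lrp5 and Lrp6 also had none. Of these genes, Wnt7b, Wnt8a, Wnt10a, Fzd2, Fzd8 and Lrp6 had a summit within 1 kb outside a gene end. Wnt5a, Fzd3, Fzd6, Lrp5, Axin1 and Apc did not. The median G and C content, taken over windows rather than genes, was 71.2% for the ligands, 74.6% for the Frizzled genes and 66.4% for the effectors. Of the genes with windows of at least 60% G and C, 4 of 13 ligands had a peak over the window, as did 5 of 5 Frizzled genes and 8 of 9 effectors. These are counts within 1 library, and genes are not replicates, so the difference between roles was not tested.

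**Figure D2:**
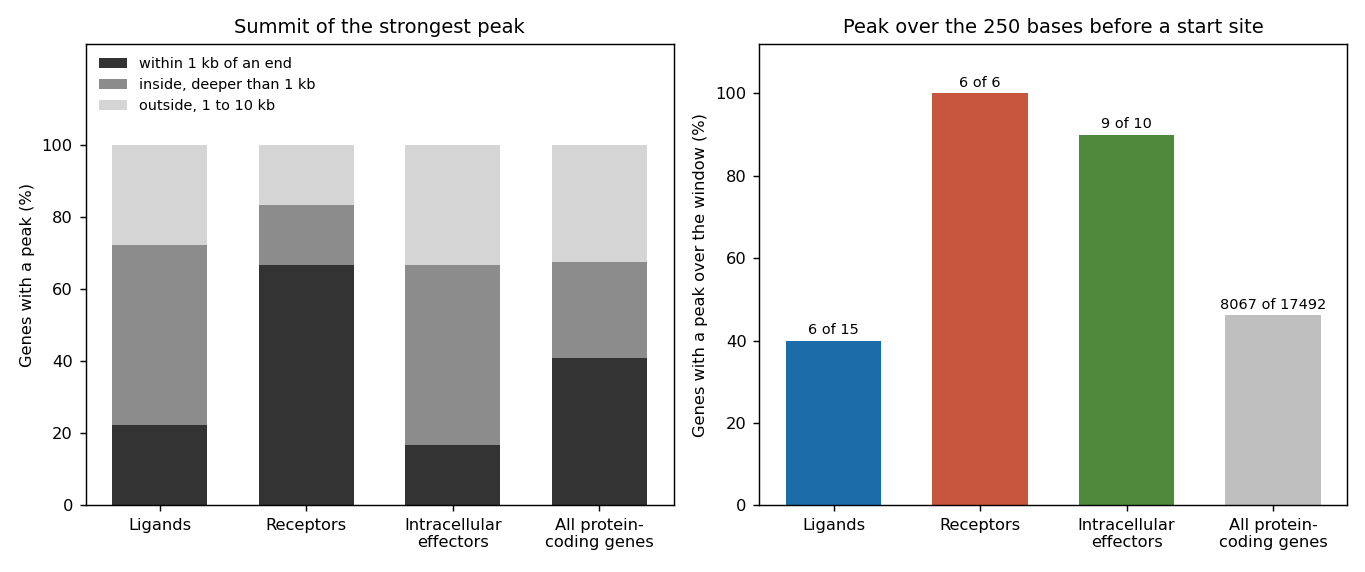
Left, bars give the share of genes with a peak (%) whose strongest summit lay within 1 kb of a gene end, deeper inside the gene, or 1 to 10 kb outside. Right, bars give the share of genes with a start site (%) that had a V5-KLF5 peak over at least 1 of the 250 bases before it, with the counts above the bars. Receptors have the largest dark share at left, 66.7%, and ligands the lowest bar at right, 40.0%. The 3 inhibitors are not drawn.

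The place of the strongest peak also differed between the roles. Its summit lay within 1 kb of a gene end at 8 of 12 receptors, 4 of 18 ligands, 2 of 12 effectors and 0 of 3 inhibitors, against 41.0% of all protein-coding genes with a peak. It lay deeper inside the gene at 9 of 18 ligands and 6 of 12 effectors, against 2 of 12 receptors and 26.4% of all. Frizzled genes are short, with a median of 4594 bp (range 2110 to 70023), whereas ligands had a median of 22906 bp and effectors 50726 bp. The part of gene length in the difference was not tested. For the genes with a known start site, the strongest summit lay within 1 kb of it at 9 of 32, 28.1%, against 41.9% of all.

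**Figure D3:**
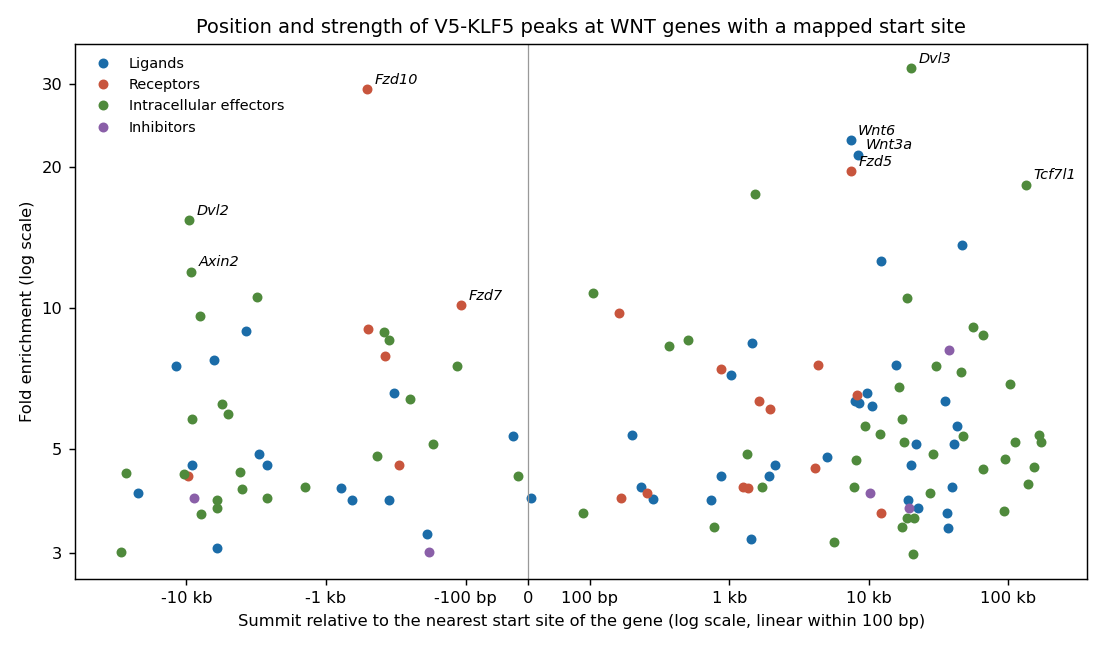
Each point is a V5-KLF5 peak at a WNT gene with a known start site (132 peaks counted at 32 genes). The horizontal axis gives the distance of the summit from the nearest start site of the gene, negative before it (log scale, linear within 100 bp), and the vertical axis the fold enrichment (log scale). Within 1 kb of a start site lie 34 of the points, Fzd10 at 29.3 the highest, while the strongest peaks of Dvl3, Wnt6, Wnt3a and Tcf7l1 lie farther away.

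Among the ligands, the strongest peaks belonged to Wnt6, Wnt3a, Wnt10a, Wnt7b and Wnt8a. Wnt3a encodes the canonical ligand that is widely used to stimulate ES cells in culture. The strongest Wnt6 peak lay inside the gene on chromosome 1 at 74778757 to 74779710, 7417 bp after the start site, with a fold enrichment of 22.8. Its summit held 144 tags, with an exact Poisson 95% interval of 121 to 170, which covers counting error only. The strongest Wnt3a peak lay inside the gene on chromosome 11 at 59281920 to 59282717, 8420 bp after the start site, with 21.2 and 86 tags (68.8 to 106). A second strong Wnt3a peak, with 13.7, lay 4104 bp beyond the 3′ end. No peak covered the Wnt3a start site itself, and the peaks near it were weak. A peak with its summit 354 bp before the start site, which reached only the far edge of the promoter, had 3.90. The peaks with summits 876 and 1932 bp into the gene had 4.39 each.

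Wnt10a had the most peaks of the ligands, 10, and its strongest, on chromosome 1 at 74806294 to 74807915, lay 3035 bp outside the gene with 20.7 and 99 tags (80.5 to 121). Wnt7b, a ligand needed for placental development in mice, had 9 peaks, the strongest deep inside the gene on chromosome 15 at 85568342 to 85568930 with 19.04 and 77 tags (60.8 to 96.2). A Wnt7b peak over the higher-coordinate end of the gene had 9.76. Wnt8a, a ligand of the early embryo, carried its strongest peak 355 bp outside the gene on chromosome 18 at 34541746 to 34542248, with 12.5 and 69 tags (53.7 to 87.3). The intervals of Wnt3a, Wnt10a, Wnt7b and Wnt8a all overlap each other. Overlap of separate intervals does not decide whether tag heights differ beyond counting error, and their differences were not tested.

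The other ligands had weaker peaks. Wnt2b led them with 8.92, followed by Wnt10b with 7.57, Wnt5b with 7.54, Wnt9a with 7.19, Wnt3 with 6.34, Wnt1 with 6.29 and Wnt11 with 5.34. Wnt11, a ligand of the non-canonical branch, had its strongest summit 24 bp before the start site. The remaining 6 lay between 3.07 and 4.15 and were Wnt7a, Wnt4, Wnt9b, Wnt5a, Wnt16 and Wnt8b. Wnt5a, the best-known non-canonical ligand, had 3 peaks of at most 3.52. Wnt3, which is needed for primitive streak formation in mice, had 4 peaks, all more than 35 kb after its start site. The Wnt8b peak stood on an input background of 8.43 tags, above the 95th percentile of all peaks (6.13), so its fold enrichment of 3.07 rests on a raised input.

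Several ligand genes lie side by side and are therefore not separate observations. Wnt6 and Wnt10a, 6696 bp apart on chromosome 1, had 8 and 10 peaks, of which 4 were counted for both. Among the 4 was the peak inside Wnt6 at 74783382 to 74784689, with a fold enrichment of 12.6. Wnt10b and Wnt1, 11650 bp apart on chromosome 15, had 5 and 3 peaks and shared 1. Wnt3a and Wnt9a, 16097 bp apart on chromosome 11, had 6 and 2 and shared none. Wnt9b and Wnt3 overlap by 1098 bp on chromosome 11 and had 1 and 4, with none shared. The Wnt6 and Wnt10a locus held 14 distinct peaks, against 5 to 8 at the other 3 loci.

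**Figure D4:**
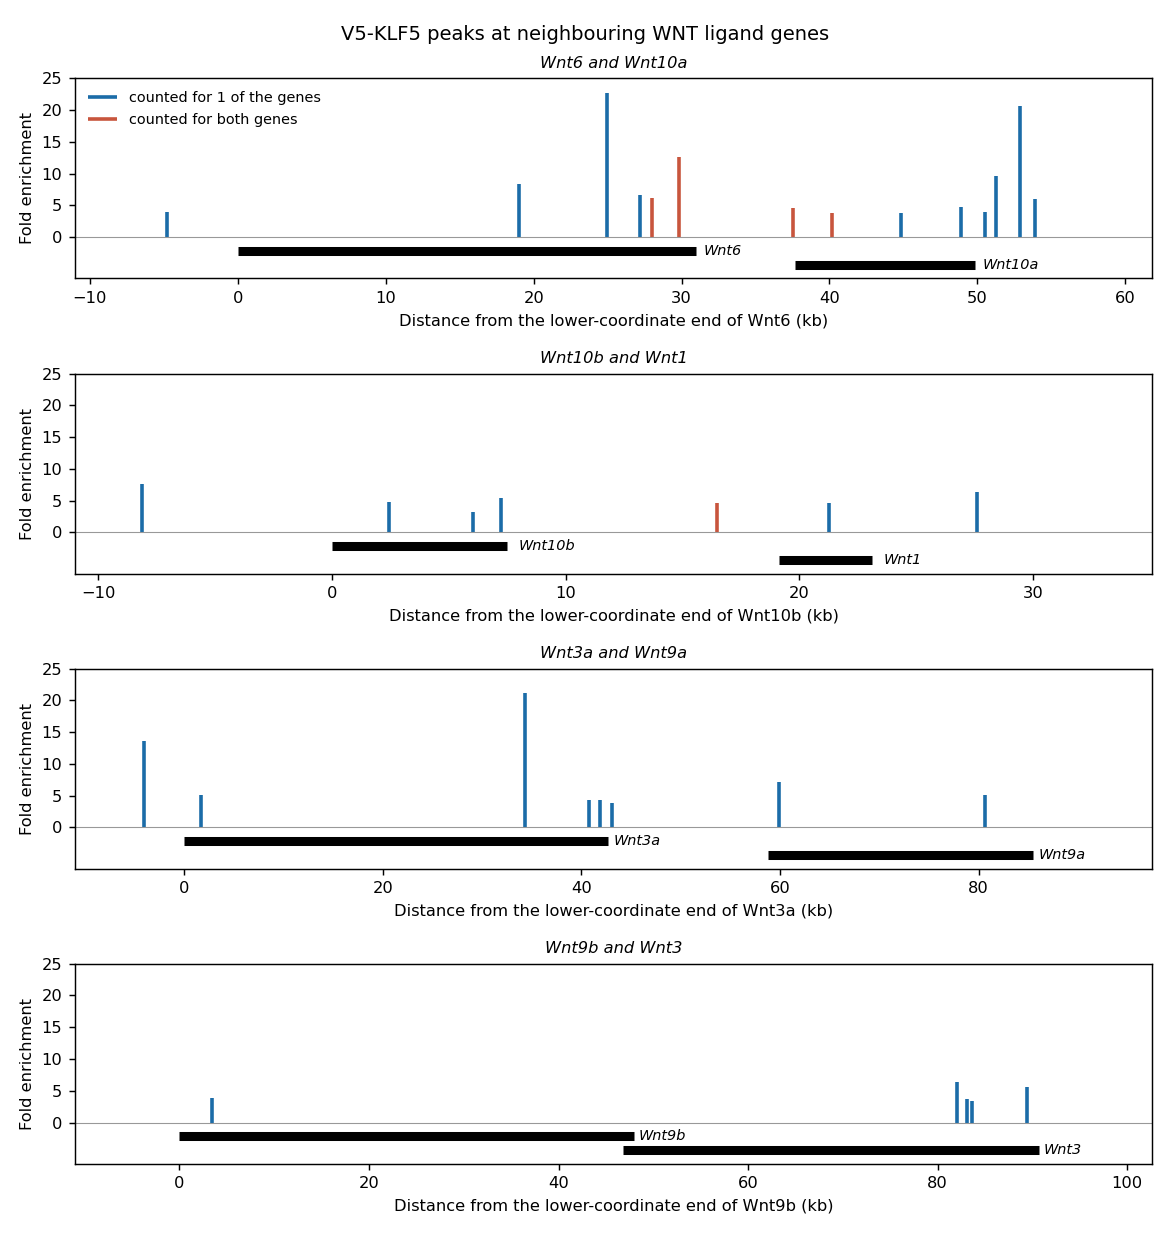
Each panel shows a pair of neighbouring ligand genes, with black bars for the genes and a vertical line at each V5-KLF5 summit whose height is the fold enrichment. The horizontal axis is the distance in kb from the lower-coordinate end of the gene named on it, and red lines are peaks counted for both genes. Lines above 20 stand at Wnt6, Wnt10a and Wnt3a, and none above 10 at Wnt10b and Wnt1 or at Wnt9b and Wnt3.

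Among the receptors, Fzd10 carried the strongest peak, followed by Fzd5, Fzd2 and Fzd7. Frizzled proteins are the seven-pass membrane receptors of WNT ligands. The Fzd10 peak on chromosome 5 at 128598704 to 128601074 was broad and covered most of the promoter printed above. Its fold enrichment was 29.3 with 119 tags (98.6 to 142), and its summit lay 505 bp before the start site. Fzd5 is needed for the yolk sac and placental vasculature in mice. The strongest of its 5 peaks, on chromosome 1 at 64730064 to 64730544, lay 248 bp beyond the 3′ end, with 19.6 and 105 tags (85.9 to 127). A second Fzd5 peak covered the start site, where the fold enrichment was 9.76. The tag intervals of Fzd10 and Fzd5 overlap, and both stand above those of Fzd2 and Fzd7.

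The Fzd2 peak on chromosome 11 at 102603474 to 102604631 was the only peak of that gene, with its summit 25 bp outside the lower-coordinate end and a fold enrichment of 13.7 from 55 tags (41.4 to 71.6). Fzd7, a Frizzled gene expressed in ES cells, had its summit 108 bp before the start site on chromosome 1 (peak at 59481600 to 59482355), inside the printed promoter, with 10.1 and 48 tags (35.4 to 63.6). Fzd4 had 9.05 at a summit 502 bp before its start site, a position inside the span of Tmem135, and 7.41 at a summit 878 bp after it. Fzd9 had 7.89, and Fzd6, Fzd8, Fzd1 and Fzd3 had 5.62, 4.64, 4.15 and 3.52. The Fzd3 peak lay nearer to Fbxo16. The co-receptor Lrp6 had 8.54 at a summit 304 bp outside its higher-coordinate end, and Lrp5 had 7.86 at a summit deep inside the gene. The LRP genes are over 100 kb long and had 6 (Lrp5) and 2 (Lrp6) peaks. All protein-coding genes of 50 kb or more had a median of 3.

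In the destruction complex, all 5 genes had peaks, from 5 to 7 each, with strongest fold enrichments of 6.79 to 12.1. Apc, the scaffold and tumour suppressor, led with a peak on chromosome 18 at 34220633 to 34221165, 621 bp inside the lower-coordinate end, with 12.1 and 60 tags (45.8 to 77.2). Axin2, a negative-feedback gene that WNT signalling itself induces, had its strongest peaks upstream. On chromosome 11 at 108910338 to 108911573, 9247 bp before the start site, the fold enrichment was 11.96 with 66 tags (51.04 to 83.97), and a neighbouring peak 7936 bp before the start site had 9.63. The peak over the Axin2 start site had 8.30. Axin1, the constitutive scaffold, had 9.03 inside the gene. Gsk3b, a kinase that phosphorylates beta-catenin, had 8.76 inside the gene and 8.54 at a summit 510 bp after the start site. The peak counted for the related kinase gene Gsk3a, with 6.79, lay inside Zfp526, and the peak at Gsk3a itself had 4.85 on a raised input of 7.67 tags.

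Dishevelled genes encode the adaptors that relay the receptor signal. Dvl3 carried the strongest peak of all 46 genes, on chromosome 16 at 20536875 to 20537633, with 32.5 and 132 tags (110 to 157). That summit lay 3136 bp beyond the 3′ end of Dvl3 and inside Ap2m1, an endocytic adaptor gene. The peak nearest to Dvl3 itself had 7.54, 116 bp before the start site. The strongest peak counted for Dvl2, on chromosome 11 at 69990825 to 69991808 with 15.4 and 109 tags (89.5 to 131), lay nearer to Gabarap, 9516 bp before the Dvl2 start site. The peak over the printed Dvl2 promoter had 10.8. Dvl1 had 4 peaks of at most 5.61.

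Among the TCF and LEF genes, which encode the DNA-binding partners of beta-catenin, peak numbers ran from 2 to 15. Tcf7l1, a repressor that restrains pluripotency genes in mouse ES cells, had 15 peaks, the highest number of the 46 genes. The strongest, on chromosome 6 at 72655115 to 72656616, lay deep inside the gene with 18.3 and 76 tags (59.9 to 95.1). The next, 1537 bp after the start site at 72786960 to 72788478, had 17.5 and 97 tags (78.7 to 118), and a peak over the promoter had 8.90. Tcf7l2 had 11 peaks, the strongest with 8.54 and its summit 355 bp before the start site. Lef1 had 7 peaks, the strongest with 6.41, and Tcf7 had 2, both with 4.15.

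None of the 3 inhibitors had a peak with a fold enrichment of at least 10, and their median of 3 peaks equalled that of all 46 genes. Znrf3 and Rnf43 encode membrane ubiquitin ligases that remove Frizzled receptors, and Dkk1 encodes a secreted antagonist of LRP5 and LRP6. Rnf43 had 3 peaks, the strongest on chromosome 11 at 87736659 to 87737679 with 8.16, which lay 1773 bp outside the gene and nearer to Supt4a. The peaks inside Rnf43 had 4.04 and 3.75. Znrf3 had 3 peaks of 6.35, 5.09 and 5.03, of which the first, on chromosome 11 at 5272497 to 5273322, lay 3209 bp beyond the gene. Dkk1 had a peak of 3.02 over its promoter, and the stronger peak counted for it, with 3.93 on chromosome 19 at 30558133 to 30558525, lay 8825 bp outside the gene and nearer to Prkg1.

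Longer genes had more peaks, among the WNT genes as among all genes. WNT genes under 10 kb had a median of 3 peaks, those of 10 to 50 kb 3.5 and those of 50 kb or more 5.5, against 1, 2 and 3 for all protein-coding genes of the same lengths. All 14 WNT genes under 10 kb had a peak, where 53.0% of all genes of that length had one. In the middle class 19 of 20 did, against 77.2%, and in the longest 12 of 12, against 86.8%. In the longest class 2 of 12 WNT genes had a peak with a fold enrichment of at least 10, against 30.3% of all genes of that length, while in the shortest 6 of 14 did, against 15.5%. Both percentages count genes with and without a peak.

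**Figure D5:**
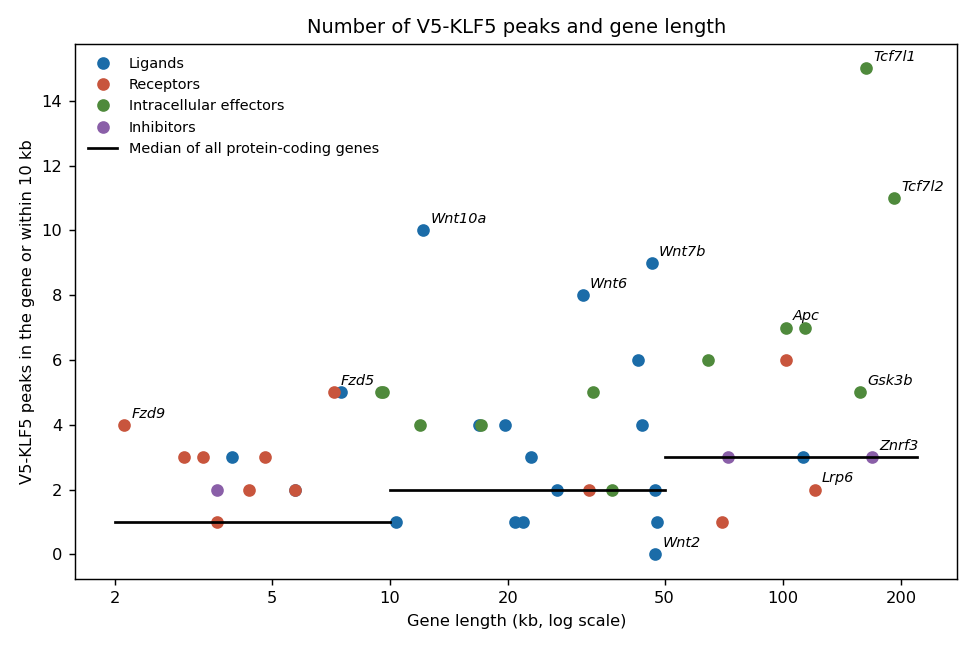
Each point is a WNT gene, with its length (kb, log scale) against the number of V5-KLF5 peaks counted for it. Black lines are the medians of all protein-coding genes in 3 length classes (1, 2 and 3 peaks). Tcf7l1 with 15 and Wnt10a with 10 peaks lie above the medians of their classes, and Wnt2 lies at 0.

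The edge of the 10 kb window mattered for single peaks. Between 8 and 10 kb from a gene lay 13 counted peaks, with fold enrichments of 3.57 to 15.4, the highest that of Dvl2. Between 10 and 12 kb from a gene lay 9 peaks that were not counted for it, with 2.86 to 9.10, the highest also at Dvl2. Of these, the Wnt10a peak of 6.60 was counted for Wnt6 and the Wnt1 peak of 5.37 for Wnt10b. With a window of 1 kb, 43 of 46 WNT genes had a peak, against 63.2% of all protein-coding genes, and with 50 kb 45 did, against 81.1%. Counted by summits within 10 kb there were 45, against 70.5%, and with each peak counted only for the nearest gene 44, against 62.5%. At a −log10 q of at least 10 there were 34, against 54.9%. The strongest peak belonged by position to another gene at 8 of 45 WNT genes, 17.8%, against 28.8% of all protein-coding genes with a peak. These 8 were Wnt10b, Fzd3, Fzd4, Gsk3a, Dvl2, Dvl3, Rnf43 and Dkk1.

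A further list of 51 WNT pathway genes, such as R-spondins, their LGR receptors, secreted antagonists and beta-catenin cofactors, gave similar counts. A peak lay at 49 of 51, 96.1%, and 15 of 51, 29.4%, had a peak of at least 10, again against 70.6% and 22.5% of all protein-coding genes. Among genes with a peak, 15 of 49 reached 10, against 4914 of 15459. The 5 strongest were Notum with 27.1, Dkk4 with 21.8, Pygo2 with 20.0, Ctnnb1 with 14.4 and Ror2 with 14.3. The Dkk4 summit lay 9953 bp outside the gene, at the edge of the window, and the Notum summit 2629 bp outside. Those of Pygo2 and Ror2 lay inside their genes. Notum encodes a secreted enzyme that inactivates WNT ligands, and Ctnnb1 encodes beta-catenin, where the summit lay 10 bp outside an end of the gene. Rspo3 and Dkk2 had no peak.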

How the data were processed

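Peak lists of 3 immunoprecipitates were used, out of 5 samples that include 2 inputs. Per the file headers, the authors ran MACS2 2.1.0.20140616 on each library alone against the matching input (tags of 51 bp, extension to 250 bp, 1 tag per position, q-value cutoff 0.05). The build was mm10, per the submitters' processing notes. No source used here states the treatment of multiply mapping reads. The deposited columns hold the pileup signal at the summit, p-value and q-value as −log10, and fold enrichment (a ratio over input), all set by the authors and used here only within the list.

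The 45366 V5-KLF5 peaks on assembled chromosomes were joined to RefSeq genes of GRCm38.p6, the assembly mm10 names, where all 46 symbols matched. That table has no exons, so exons and introns are not resolved. Start sites came from RefSeq promoter windows (33 of 46 genes). The anti-V5 library was smaller than its input, so its pileups are unscaled tag counts. Input background was (pileup + 1) / fold enrichment − 1. A summit's nearest gene was the protein-coding gene holding it (by the nearer end where several did), otherwise the closest.

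Members and lists were chosen with earlier results of these data known. In each role, the 3 genes with the strongest peaks and each gene reaching a fold enrichment of 10 were described with position. Promoters and motifs were chosen after the values were seen. The assignment of peaks was tested on simulated data. Python 3.11.15, pandas 2.3.3 and scipy 1.17.1 were used. Alternatives changed the window, the peak threshold and the counting of shared peaks.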

Additional observations from a re-analysis of the deposited data

How the results depend on the processing

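The counts of WNT genes, ligands, receptors and effectors with a V5-KLF5 peak stayed within 1.5 times the reported ones in the 1 kb, 50 kb, −log10 q, nearest-gene and summit settings, the last of which was chosen after seeing the data. At a −log10 q of at least 10 these counts were 34 of 46, 12 of 19, 9 of 12 and 11 of 12, against 54.9% of all protein-coding genes. The ligand count there stood at the limit of 1.5 times. At a fold enrichment of at least 10 the counts were 14, 5, 4 and 5, because that list is shorter. The median strongest fold enrichment was 9.05 within 50 kb, below the 10.01 of all protein-coding genes, and 7.48 with each peak counted only for its nearest gene, against 7.03. The effector median exceeded the ligand median in those settings, but not among peaks of at least 10 (15.4 for effectors, 16.6 for receptors and 20.7 for ligands). The receptor median exceeded the effector median within 1 kb (8.54 and 8.42) and at a −log10 q of at least 10 (9.05 and 9.03), and fell below the ligand median within 50 kb (8.22 and 9.74). No paired analysis was possible because each group has 1 library, and no replicate could be left out. Signal in the controls that fell short of a peak was not used here.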
